A study of Mus musculus with 18 samples.

Results

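Notch1 binding was described in mouse T cell acute lymphoblastic leukaemia (T-ALL) from the deposited list of Notch1 peaks, the places where chromatin immunoprecipitation followed by sequencing (ChIP-seq) with a Notch1 antibody gave a called peak. The members are all peaks on the 19 autosomes, 14541 of the 14569 in the list and of 60531 rows in the 4 deposited lists of the series. The T-ALL cells were tumours overexpressing Notch1-IC, the intracellular form of Notch1. The list belongs to 1 T-ALL library made with the Notch1 antibody, and T-ALL also has 1 library of sonicated input, which is fragmented chromatin without an antibody. Neither has a replicate. No normal thymocytes were profiled for Notch1 in the libraries used here, so the peaks show where binding was called in tumours and not where it differed from normal cells. For 3 histone marks the series has 2 T-ALL libraries each and 2 libraries of normal thymocytes double positive (DP) for CD4 and CD8. The sources used here do not give the strain, the age, the number of tumours, the driver of Notch1-IC or the antibody clone, nor whether the antibody separates Notch1-IC from the cells' own Notch1. Fixation was with 1% formaldehyde (10 min), Notch1 chromatin was sonicated for 40 min in all, and single-end reads of 36 bp were trimmed to 34 bp. The histone libraries were sonicated for a much shorter time. Apart from the sonicated input, the inputs of the series are named for micrococcal nuclease (MNase), in both T-ALL and DP cells. The Notch1 and histone lists thus come from chromatin that was prepared differently. The effect of this on comparisons of width, clustering and spacing between the lists was not tested.

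Notch1 is a receptor that is cut when it meets a ligand on a neighbouring cell, and the freed intracellular part enters the nucleus. There it does not bind DNA by itself. It joins the DNA-binding protein Rbpj and coactivators of the Mastermind family, and the complex activates target genes such as Hes1, Dtx1, Ptcra and Myc. In the thymus the pathway commits progenitors to the T cell lineage, and T-ALL often arises from its uncontrolled activity. H3K27me3 is the mark of Polycomb silencing, while H3K4me3 and H3K9ac are found at the promoters of active genes.

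The list gives a chromosome, a start and an end on mm9 and no height, fold or significance per peak. The sequencing depth behind it is unknown, and so is the way the input entered the calls. All results are therefore counts, widths and distances. Intervals are 95% intervals that cover counting error over peaks, which are not replicates, and no test between samples was possible. They take peaks as independent, so they are too narrow where peaks crowd together. The cell type of the tumours could not be checked against marker genes, since no expression values belong to the series. No gene annotation of mm9 was used here, so peaks are given by position.

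Notch1 peaks were narrow and of similar size. The median width was 675 bp, with quartiles at 550 and 825 bp, and the mean was 711 ± 204 bp (SD over 14541 peaks). No peak was narrower than 500 bp, and this narrowest width was also the most frequent one, with 1891 peaks (13.0%, Clopper-Pearson interval 12.5 to 13.6). A further 1233 peaks were 525 bp wide. Numbers then fell to a level stretch between 625 and 775 bp before they declined, as the plot of widths and gaps shows. The sources used here do not say whether a smallest width was set when peaks were called. Peaks of 1000 bp or more made up 7.04% (1023 peaks), and 14 peaks reached 2000 bp. Together the peaks covered 10.3 Mb, or 0.430% of the 2405 Mb spanned by the deposited lists on the autosomes. The median width differed little between chromosomes, from 650 to 700 bp. Red H3K27me3 regions spread more widely in size, with a median of 750 bp and a 95th percentile of 2000 bp against 1050 bp for Notch1 peaks. Red H3K4me3 regions were close to the peaks in size, with quartiles at 525 and 800 bp, and green H3K9ac regions were somewhat narrower, with quartiles at 525 and 750 bp. Histone and Notch1 chromatin were prepared differently, and the effect of this on width was not tested.

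**Figure D1:**
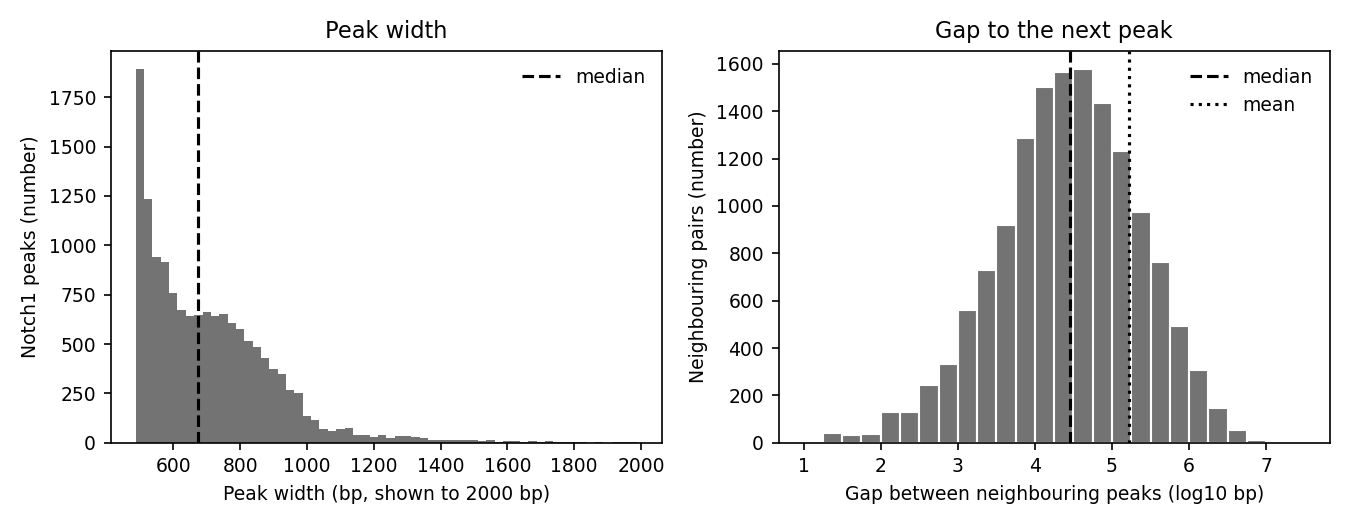
Left, the number of autosomal Notch1 peaks at each width in bp, with widths over 2000 bp not drawn. Right, the number of neighbouring pairs by the gap between them on a log10 scale of bp, without the 21 pairs that touch. Dashed lines mark the medians (675 bp and 28.4 kb) and the dotted line the mean gap (164.1 kb); widths pile up at 500 bp and gaps spread over a wide range of sizes.

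Of the 10 widest peaks, 6 shared bases with a red H3K4me3 region and 4 with a red H3K27me3 region. The shares over all peaks were 13.3% and 22.6%. None of the 10 met a green region of these 2 marks, which 0.674% and 0.701% of all peaks did. A wide peak can touch a region more easily than the typical peak of the list. Among the 122 peaks of 1500 bp or more, 38.5% met red H3K4me3 and 48.4% red H3K27me3. Green and red are the display colours of the histone lists, which compare T-ALL with DP cells, and the direction each colour stands for is not stated in the headers. The widest peak measured 3850 bp (chromosome 18, 81167651 to 81171500) and stood apart from the rest, since the next was 2550 bp wide, on chromosome 14 from 34767751 to 34770300. A peak of 2475 bp on chromosome 4, from 116781676 to 116784150, held a red H3K4me3 region. Another of 2475 bp on chromosome 15, from 83933376 to 83935850, held 2 red H3K27me3 regions. The fifth, 2400 bp wide on chromosome 1 from 120732426 to 120734825, shared bases with 1 red H3K27me3 and 2 red H3K4me3 regions. The other 5 were 2125 to 2275 bp wide. They lay on chromosomes 4, 4, 7, 16 and 17, and 2 of them met no H3K27me3 or H3K4me3 region. Wide peaks were not confined to crowded stretches: the one on chromosome 16, from 4084026 to 4086150, had 0 other peaks within 100 kb, and the one on chromosome 17, from 27252501 to 27254625, had 20.

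Spacing was far less even than width. The median gap from the end of a peak to the start of the next was 28.4 kb (27.4 to 29.8 over 14522 neighbouring pairs), while the mean gap was 164.1 kb. The lower quartile lay at 6.98 kb, the upper at 117.3 kb and the 90th percentile at 390.6 kb. Neighbours were within 1 kb in 994 pairs (6.84%), within 10 kb in 4473 pairs (30.8%) and within 100 kb in 10542 pairs (72.6%). In 21 pairs the peaks touched with no base between them. With peaks within 1 kb merged, 13547 remained. At the other end, 519 gaps exceeded 1 Mb and 20 exceeded 5 Mb.

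The longest stretches without a peak were also poor in listed H3K27me3 and H3K4me3 regions. Means per 1 Mb window of the autosomes were 4.00 green and 5.34 red H3K27me3 regions and 4.16 green and 4.58 red H3K4me3 regions. The longest stretch ran for 11.8 Mb on chromosome 4, from 70332351 to 82150200. It held 6 H3K27me3 regions (3 green, 3 red) and 14 H3K4me3 regions (7 green, 7 red). The second, 7.92 Mb on chromosome 15 from 16365426 to 24288000, held 2 green H3K4me3 regions and no H3K27me3 region. The third covered 7.83 Mb on chromosome 7 from 38702326 to 46529575. It held 1 green and 1 red H3K27me3 region, and 3 green and 6 red H3K4me3 regions. The fourth covered 7.19 Mb on chromosome 2 from 94362151 to 101557050 and held 10 green and 2 red H3K4me3 regions with 0 of H3K27me3. The fifth covered 6.86 Mb on chromosome 16 from 69430676 to 76293575, with 1 green and 1 red H3K27me3 region and 9 green and 5 red H3K4me3 regions.

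Most peaks stood alone, and a minority formed tight runs. When neighbours within 5 kb were joined, the peaks fell into 11553 groups, of which 9612 were single peaks. The other 4929 peaks (33.9%, 33.1 to 34.7) lay in 1941 clusters, and 1138 of them (7.83%, 7.39 to 8.27) in 231 clusters of 4 or more. There were 1339 clusters of 2 peaks, 371 of 3, and 15 of 8 or more. Clusters of 4 or more had a median length of 9.63 kb. The shares follow the joining distance: clusters of 4 or more held 2.41% of peaks at 2 kb and 17.1% at 10 kb. Under the same 5 kb rule clusters of 4 or more held 28.3% of red and 39.8% of green H3K27me3 regions, against 1.44% of red and 4.90% of green H3K4me3 regions. In clusters of 2 or more, green H3K4me3 (43.6%) was above the 33.9% of Notch1 peaks and red H3K4me3 (17.6%) below it. Whether the different preparation of the histone libraries affects these shares was not tested.

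The cluster with the most peaks held 12 within 29.6 kb on chromosome 2, from 179911126 to 179940675, and contained 4 red H3K27me3 and 6 red H3K4me3 regions. Another 7 clusters held 10 peaks each. They lay on chromosome 4 from 141017376 to 141035025, chromosome 5 from 140227201 to 140247775, chromosome 8 from 124074976 to 124095225, chromosome 10 from 74383426 to 74400475, chromosome 12 from 111889426 to 111909025, chromosome 15 from 76001126 to 76022800 and chromosome 19 from 6246126 to 6265125. In these 7 clusters peaks covered 34.3% to 45.5% of the bases. All 7 contained red H3K4me3 regions, 2 to 6 each, and 5 contained 1 red H3K27me3 region, while the only green region among them was 1 of H3K4me3 in the chromosome 10 cluster. Regions in other stretches of that length were not counted. Of the 1138 peaks in clusters of 4 or more, 18.5% met red H3K27me3 and 18.7% red H3K4me3, against 22.6% and 13.3% of all peaks. Green H3K27me3 met 0.351% and green H3K4me3 0, against 0.701% and 0.674%. The ninth, with 9 peaks, lay on chromosome 3 from 108199426 to 108217000. Clusters of 8 peaks numbered 6. The first of them in chromosome order, on chromosome 5 from 114645176 to 114665975, held no H3K27me3 or H3K4me3 region.

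Peak density differed between autosomes by a factor of 3.72. Chromosome 11 was the densest, with 1238 peaks or 10.4 per Mb of span (exact Poisson interval 9.86 to 11.0). Chromosome 3 was the sparsest, with 439 peaks or 2.80 per Mb (2.55 to 3.08). Chromosomes 5, 17, 4, 8 and 19 followed chromosome 11 at 8.58, 8.31, 8.29, 8.16 and 8.09 per Mb, and their intervals overlapped. At the low end chromosomes 13, 14, 1 and 16 had 3.34, 3.43, 3.60 and 3.96 per Mb, also with overlapping intervals between neighbours in that order. The Poisson intervals take peaks as independent and placed at an even rate. Peaks in 1 Mb windows had a variance 16.3 times their mean, so these intervals are too narrow. They do not show which chromosomes differ. All autosomes together had 6.05 peaks per Mb. Chromosome 11 held 8.51% of the peaks on 4.94% of the span, and chromosome 1 held 4.79% on 8.04%. With clusters within 5 kb counted once the factor was 3.30.

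**Figure D2:**
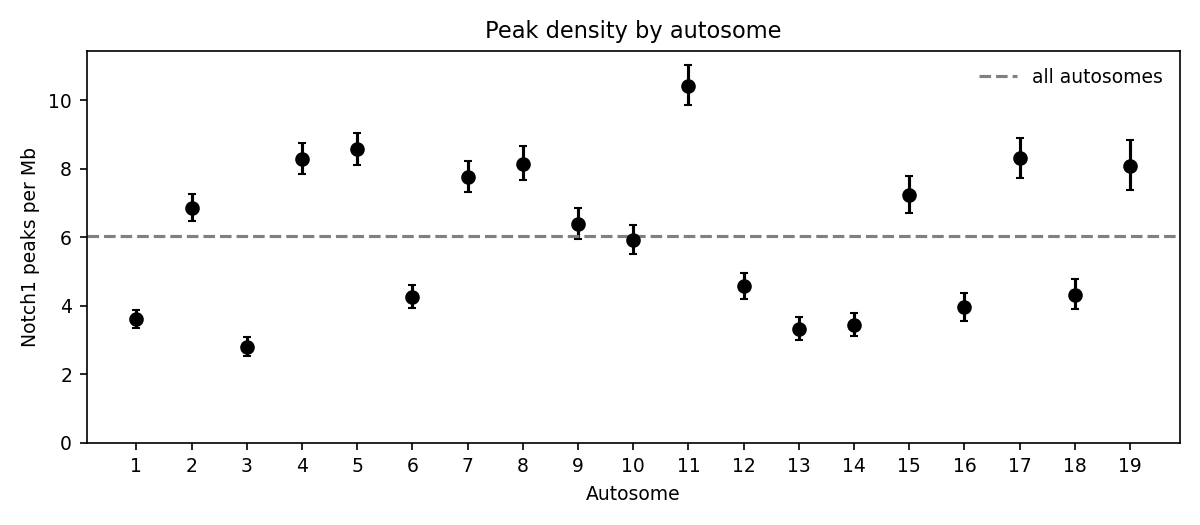
Notch1 peaks per Mb of chromosome span (vertical axis, from 0) for each autosome (horizontal axis); bars are 95% exact Poisson intervals for the count of peaks, and the dashed line is the level of all autosomes, 6.05 per Mb. Chromosome 11 stands above every other autosome at 10.4 per Mb, and chromosome 3 is lowest at 2.80 per Mb. The intervals take peaks as independent and are too narrow, since peaks crowd together.

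Across the autosomes Notch1 density went with that of the red regions, and most closely with red H3K4me3. Over the 19 chromosomes Pearson's r was 0.98 and Spearman's rho 0.96 with red H3K4me3 regions per Mb, and 0.93 and 0.88 with red H3K27me3. With green H3K4me3 they were 0.81 and 0.79, and with green H3K27me3 they were 0.58 and 0.47. In windows of 1 Mb Spearman's rho ran from 0.63 (green H3K4me3) and 0.67 (green H3K27me3) to 0.81 (red H3K27me3) and 0.82 (red H3K4me3) over 2419 windows. These are descriptions, since chromosomes and windows share the same libraries.

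Within chromosomes a small part of the genome held most peaks. The 2419 windows of 1 Mb held 6.01 peaks on average with a median of 2, and 538 windows (22.2%) held none. The fullest 242 windows, 10% of all, held 50.8% of the peaks, and the fullest 24, 1% of all, held 10.2%. The variance over the mean of peaks per window, which is near 1 for items placed independently at an even rate, was 16.3. It was 16.7 for both classes of H3K27me3, 7.99 for red H3K4me3 and lowest, of these lists, for green H3K4me3. The value depends on the number of regions in a list, which differed, so the lists are not compared like for like. The Notch1 value also depends on the window, at 9.90 for windows of 500 kb and 26.0 for 2 Mb, and was 9.37 with clusters counted once.

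The 2 fullest windows lay side by side on chromosome 10. From 80000001 to 81000000 there were 117 peaks, with a median gap of 2.79 kb and 85.5 kb covered, and from 79000001 to 80000000 there were 107. Both were rich in red regions, with 68 and 86 of H3K27me3 and 53 and 60 of H3K4me3. They were also above the mean in green regions, with 10 and 32 of H3K27me3 and 21 and 18 of H3K4me3. Over all windows the means were 5.34 red and 4.00 green H3K27me3 regions, and 4.58 red and 4.16 green H3K4me3 regions. Of the 117 peaks, 21 shared bases with red H3K27me3 and 12 with red H3K4me3, and of the 107 peaks 25 and 18 did. Over all peaks those shares were 22.6% and 13.3%, so the shares in these windows were near those of the whole list. Chromosome 10 as a whole was near the average density, at 5.92 per Mb, but 18.6% of its peaks lay in clusters of 4 or more, the highest share of any autosome, against 0.717% on chromosome 1. The next fullest windows were on chromosome 8 from 124000001 to 125000000 (80 peaks), chromosome 4 from 140000001 to 141000000 (71), chromosome 8 from 123000001 to 124000000 (67), chromosome 5 from 114000001 to 115000000 (66) and chromosome 17 from 27000001 to 28000000 (64). The last 3 of the 10 fullest held 61, 61 and 60 peaks, on chromosomes 4, 17 and 4. In all 10 windows the median peak width was 650 to 700 bp, close to the 675 bp of the whole list.

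Peaks leaned towards the distal ends of the autosomes. Mouse autosomes have their centromere at the end where numbering starts. Each span was divided into 10 equal segments. The last segment held 2949 peaks, 20.3% of all (19.6 to 20.9), and the ninth held 14.0%, while the first held 6.51%. The last segment was above 10% on 15 of the 19 autosomes, and the exceptions were chromosomes 6, 13, 14 and 17. Single chromosomes ranged in that segment from 4.44% (chromosome 17) to 35.1% (chromosome 12). Others had their maximum elsewhere, with 185 of 470 peaks of chromosome 19 in the first segment (39.4%) and 276 of 725 peaks of chromosome 15 in the eighth (38.1%). The last segment also held more than 10% of the regions of each histone class named here, 19.0% of red and 15.7% of green H3K27me3 and 17.0% of red and 13.2% of green H3K4me3.

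**Figure D3:**
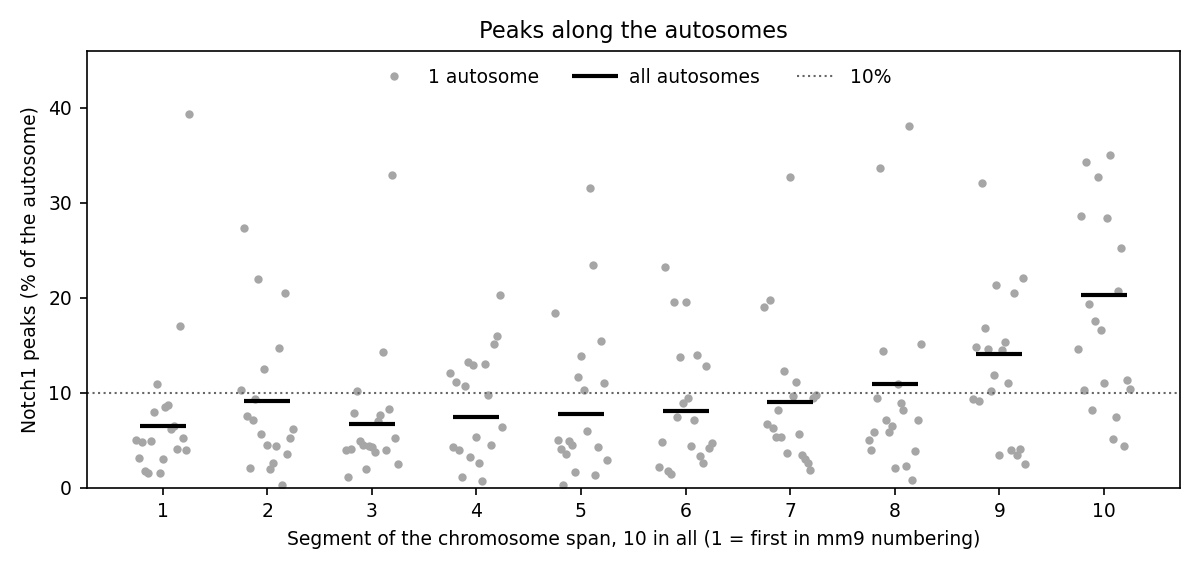
Share of each autosome's Notch1 peaks (vertical axis, %) in each of 10 equal segments of its span (horizontal axis, 1 being the first in mm9 numbering). Grey points are the 19 autosomes, black bars all autosomal peaks, and the dotted line is 10%; the black bar lies at 6.51% in the first segment and at 20.3% in the last, with a wide spread between autosomes.

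Where peaks met H3K27me3 or H3K4me3 regions, these were nearly all red, while the few H3K9ac regions met were about evenly divided. Of 14541 peaks, 3287 shared at least 1 bp with a red H3K27me3 region (22.6%) and 1931 with a red H3K4me3 region (13.3%). Green H3K27me3 met 102 peaks (0.701%, or 6.81% with regions within 1 kb counted) and green H3K4me3 met 98 (0.674%). On the 11 chromosomes of the H3K9ac list, 18 of 9030 peaks met a green region (0.199%) and 20 a red one (0.221%). No base was shared with any listed region by 9751 peaks (67.1%), and 4809 (33.1%) were over 10 kb from every one. The histone lists come from a comparison of T-ALL with DP cells, so chromatin marked alike in both may be missing from them. These peaks may therefore still lie in chromatin that carries the marks. H3K9ac is listed on only 11 of the 19 autosomes. The share in red H3K27me3 ranged over the autosomes from 16.2% on chromosome 17 to 28.0% on chromosome 3. The share in red H3K4me3 was steadier, from 11.9% on chromosome 2 to 16.2% on chromosome 13.

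Red H3K27me3 and red H3K4me3 regions were most frequent at the peak centres. A red H3K27me3 region covered the centre of 20.3% of peaks, 6.21% of the positions 1 kb away, 3.10% at 5 kb and 1.86% at 50 to 100 kb. For red H3K4me3 the shares were 10.9% at the centre, 2.08% at 1 kb, 1.47% at 5 kb and 1.02% at 50 to 100 kb. Relative to 50 to 100 kb the centres were thus 10.9-fold and 10.7-fold higher. Red H3K9ac showed no such rise, with 0.122% at the centre and 0.133% at 50 to 100 kb, and rests on 11 peaks at the centre. Red H3K27me3 wholly covered 1476 peaks, and red H3K4me3 wholly covered 282.

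Green H3K27me3 and green H3K4me3 regions were least frequent at the peak centres, and green H3K27me3 rose on either side. A green H3K27me3 region covered the centre of 14 peaks, 0.0963% (0.0526 to 0.161), against 0.870% at 50 to 100 kb. Its share then rose to 2.79% at 1.75 kb from the centre, and was 2.75% at 2 kb, 3.16-fold the level at 50 to 100 kb. So 888 peaks (6.11%) had a green H3K27me3 region within 1 kb without sharing a base with it, against 102 that did share one. For each mark, green and red are classes of the same comparison. How far the low green shares at the centre follow from red regions lying there was not tested. Green H3K4me3 covered the centre of 13 peaks, 0.0894%, and stayed below its level at 50 to 100 kb (0.738%) at 1, 2 and 5 kb, with 0.526%, 0.495% and 0.499%. Green H3K9ac was not lower at the centre, at 0.122% (11 peaks) against 0.0843% at 50 to 100 kb. Other Notch1 peaks covered 4.13% of positions at 2 kb and 1.71% at 50 to 100 kb.

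**Figure D4:**
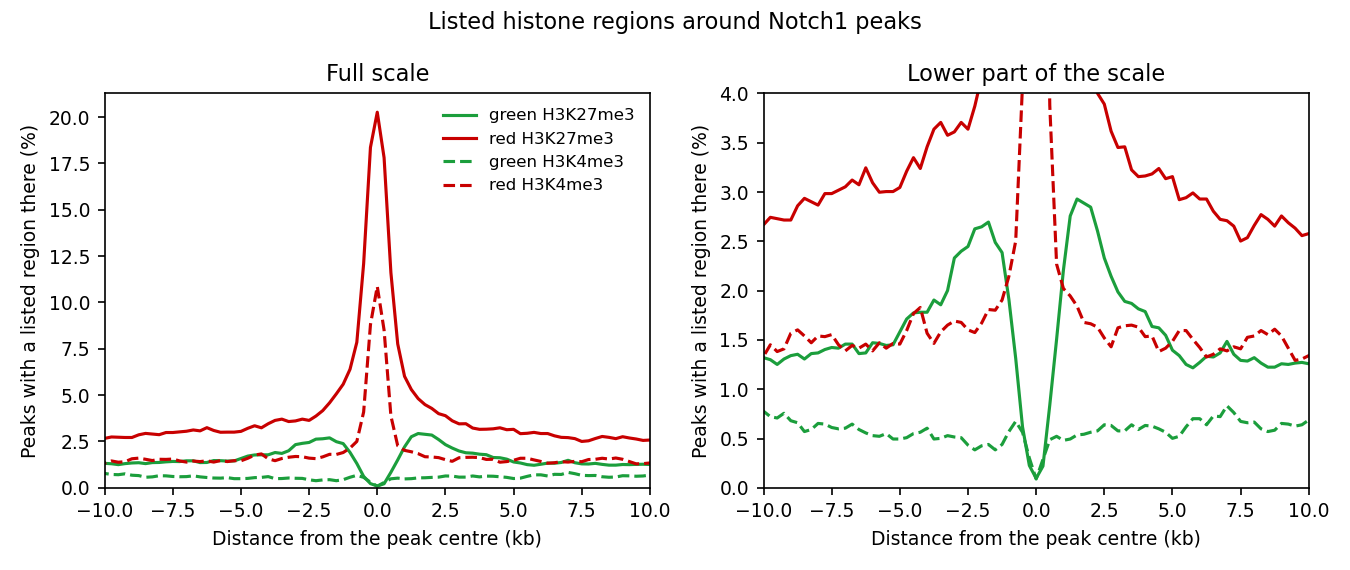
Share of the 14541 autosomal Notch1 peaks with a listed region at each distance from the peak centre (horizontal axis, kb), for H3K27me3 (solid) and H3K4me3 (dashed) in the display colours green and red; the right panel enlarges the lower part. Both red classes drawn peak at the centre, at 20.3% and 10.9%, while green H3K27me3 falls to 0.0963% there and rises to 2.79% at 1.75 kb.

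The green H3K27me3 flanks belonged mostly to peaks inside red H3K27me3. Of peaks in red H3K27me3, 736 of 3287 (22.4%, 21.0 to 23.9) had a green region within 1 kb and 47.0% within 5 kb. The share within 1 kb was 22.5% for peaks in red regions of both marks, 2.47% for peaks in red H3K4me3 alone of the 2 red classes, and 1.19% for peaks in neither. Red H3K27me3 regions had such neighbours with and without a Notch1 peak. A green region lay within 1 kb of 24.7% (23.2 to 26.2) of the 3202 red regions holding a peak and of 21.1% (20.3 to 21.9) of the 9710 holding none. Among red regions 500 to 1000 bp wide the order turned, with 17.0% (15.2 to 19.0) and 18.5% (17.6 to 19.4), and those intervals overlap. Within 5 kb the shares among these regions were 36.8% (34.4 to 39.2) with a peak and 40.4% (39.3 to 41.6) without, so the higher share was that of the regions without a peak.

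Wider peaks lay in red regions more often. Of the 500 bp peaks 18.7% shared bases with red H3K27me3 and 10.6% with red H3K4me3. Of the 901 peaks of 1000 to 1475 bp, 39.1% (35.9 to 42.3) and 28.4% (25.5 to 31.5) did so, and of the 122 peaks of 1500 bp or more, 48.4% (39.2 to 57.6) and 38.5% (29.9 to 47.8). The changes below 1000 bp were smaller, reaching 24.6% and 16.0% at 800 to 975 bp. A wide peak can touch a region more easily, so the centre alone was also counted: red H3K27me3 covered the centre of 16.7% of 500 bp peaks and of 40.2% of those of 1500 bp or more, and red H3K4me3 the centre of 8.83% and 22.1%.

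**Figure D5:**
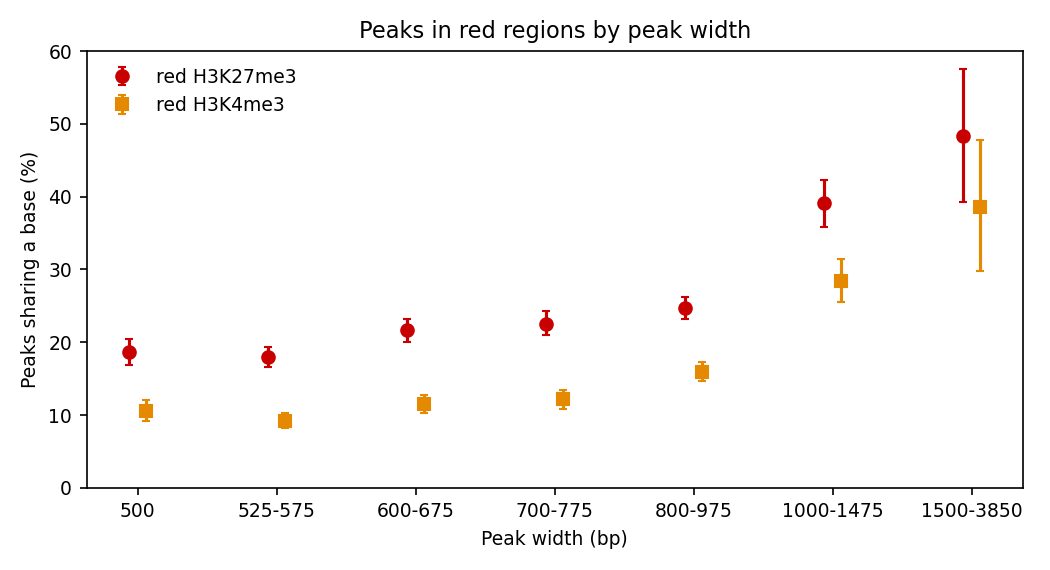
Share of Notch1 peaks (vertical axis, %) that share at least 1 bp with a red H3K27me3 region (circles) or a red H3K4me3 region (squares), by peak width in bp (horizontal axis); bars are 95% Clopper-Pearson intervals. Both shares are level or rise slowly up to 975 bp and then climb, to 48.4% and 38.5% among the 122 widest peaks.

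Lone and crowded peaks met the red marks in different proportions, a difference that was described and not tested. Single peaks shared bases with red H3K27me3 in 21.5% (20.7 to 22.4) and with red H3K4me3 in 12.9% (12.2 to 13.6). In clusters of 3 the shares were 27.5% and 12.4%. In clusters of 4 or more they were 18.5% (16.2 to 20.8) and 18.7% (16.5 to 21.1), and in clusters of 8 or more 11.5% (6.72 to 18.0) and 22.3% (15.7 to 30.1) of 139 peaks. None of the 1138 peaks in clusters of 4 or more met green H3K4me3, which allows a share of up to 0.324% by the Clopper-Pearson interval, against 0.926% of single peaks. Counted by window, red H3K27me3 met 29.2% (27.6 to 30.9) of peaks in windows holding 1 to 5 peaks and 18.7% (17.1 to 20.4) in windows holding over 40. For red H3K4me3 the corresponding shares were 13.7% and 13.3%. Peaks of a cluster share a locus and are not independent, so the intervals are too narrow.

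The headers of all 4 files set a common browser window on chromosome 16, 30061173 to 30072152. From general knowledge of mm9, and not from a file used here, this is the locus of Hes1, a transcriptional repressor and the best known direct Notch target. It held 1 Notch1 peak, from 30066276 to 30066775, which at 500 bp has the narrowest width in the list. Its nearest neighbours lay 57.2 kb before and 53.8 kb after it. Within 100 kb it had 3 other peaks, where the median peak had 4, so its surroundings were ordinary for the list. It lay inside a red H3K27me3 region 2750 bp wide and shared bases with green H3K4me3 and green H3K9ac regions. The window also held a red H3K4me3 region, from 30064001 to 30064850, which the peak did not touch. Few peaks met the combination of the Hes1 peak, but green H3K4me3 and green H3K9ac each met few peaks anyway (0.674% and 0.199%). Of the 98 peaks in green H3K4me3, 16 were also in red H3K27me3, which 22.6% of all peaks met. On the chromosomes of the H3K9ac list, 2 of 9030 peaks met red H3K27me3, green H3K4me3 and green H3K9ac together. On all autosomes 556 of 14541 peaks met red regions of both H3K27me3 and H3K4me3. Taken separately, red H3K27me3 met 22.6% of all peaks and red H3K4me3 met 13.3%. Other known Notch targets were not placed, since that needs an annotation of mm9.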

How the data were processed

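BWA was the aligner and NCBIM37 (mm9) the build, per the submitters' processing notes. The sources used here do not give the caller, its thresholds, the use of the input or the pooling of histone replicates. The authors deposited 4 BED lists of positions, and all starts and ends are multiples of 25 bp. A deposited score of 1000 fills every row and was not used as a measurement. Notch1 peaks in the list do not overlap each other.

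Widths, end-to-start gaps, runs of neighbours within 5 kb, counts per 1 Mb window and distances to histone regions were computed with Python 3.11.15, pandas 2.3.3 and scipy 1.17.1. Windows and segments take a peak by its centre. Span runs from the first start to the last end of any list on a chromosome. Coordinates are 1-based mm9. Shares carry Clopper-Pearson intervals and medians exact order-statistic intervals, at 95%. The functions were checked on simulated lists. The members, lists and rules were chosen with earlier results of these data known. Regions named are the 10 widest peaks, 10 largest clusters, 10 fullest windows, 5 longest gaps and the display window. The reference gene table is of GRCm38 and not of mm9, so the planned count at Notch target genes was not made.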

Additional observations from a re-analysis of the deposited data

How the results depend on the processing

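With 1 library no replicate could be left out. No paired analysis was possible because Notch1 has 1 library and the lists hold no values per library. The alternative window for target genes was not run. Leaving out the 2 fullest windows was chosen after seeing the data and gave a variance over mean of 15.0.

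Keeping peaks at or above the median width left 7486 peaks with a median width of 800 bp, a median gap of 63.9 kb and a variance over mean of 8.92, by construction with fewer peaks. It put 22.4% of peaks in clusters of 2 or more and 3.09% in clusters of 4 or more. It put 25.8% in red H3K27me3, 16.2% in red H3K4me3, 0.508% in green H3K4me3 and 0.109% in green H3K9ac. Merging peaks within 1 kb gave a median width of 700 bp and a gap of 34.1 kb, with 25.5% and 3.45% of merged peaks in such clusters. Joining at 2 kb gave 20.4% and 2.41%, and at 10 kb 47.3% and 17.1%. The variance over mean was 9.90 at 500 kb, 26.0 at 2 Mb and 9.37 with clusters counted once, when the last segment of a chromosome held 19.1%. With 50% of a peak covered, the shares were 20.1% in red and 0.103% in green H3K27me3, 10.7% in red and 0.110% in green H3K4me3 and 0.122% in red H3K9ac. With regions within 1 kb counted, they were 25.3% and 6.81%, 17.7% and 1.82%, and 0.365% for each colour of H3K9ac. Of the alternatives, 12 of 45 stayed within the interval of the main value or, for counts and ratios, within 1.5 times it.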

Other observations

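Outside the autosomes the list held 28 peaks on the X chromosome and 0 on Y. The X peaks came to 0.174 per Mb over a span of 160.8 Mb, with a median gap of 4089 kb. This density was far below the 6.05 per Mb of all autosomes and the 2.80 per Mb of the sparsest autosome. The reason for the low density on X was not tested. The X peaks were narrow, with a median of 587.5 bp and a widest of 850 bp. Of the 28, 7 shared bases with a red H3K27me3 region and 2 with a red H3K4me3 region, and 0 met a green region of either mark. Over the autosomal peaks the shares were 22.6% and 13.3% for red, and 0.701% and 0.674% for green H3K27me3 and H3K4me3. With so few X peaks, no difference from the autosomes in these shares can be read.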
